A study of Mus musculus with 6 samples.

Results

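The genes described here were the collagen chains, laminin chains, fibulins, fibrillins, lysyl oxidases, CCN proteins, matrix metalloproteinases (MMPs) and tissue inhibitors of metalloproteinases (TIMPs), chosen by a rule on gene symbols with no threshold on a measured value. The deposited table held 94 of them among 38715 genes. The samples were 6 RNA-seq libraries of whole mouse testis, 3 titled Control and 3 titled Middle. Per the design text, animals were controls or were exposed to MES. Middle is taken here for the exposure, since the titles hold only Control and Middle. Strain, genotype, age, dose, route and the meaning of the letters MES are not stated in the sources used here. The labels do not say that each library came from its own animal, and a p-value then measures only the spread among libraries, which may be technical.

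The extracellular matrix of the testis lies mainly around the seminiferous tubules. Each tubule rests on a basement membrane of laminin and collagen IV made by Sertoli cells and by the peritubular myoid cells outside it, and fibrillar collagens lie in the layer beyond and in the interstitium. Each collagen molecule is a triple helix of 3 chains and each laminin a trimer of 1 alpha, 1 beta and 1 gamma chain. Lysyl oxidases crosslink collagen and elastin, MMPs cut matrix proteins, and TIMPs block MMPs.

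Values are RPKM (reads per kilobase of gene length, scaled to library size), so levels of different genes can be compared per length. Lengths were the union of all exons for each of the 94 genes, which understates a gene with long exons that testis transcripts seldom include. Libraries held 38820385 to 58389391 reads over all genes, and the 94 genes held 420209 reads in all, 0.127% to 0.146% of a library. Testis identity was clear from germ cell genes: the spermatid gene Prm2 was at 12590.1 ± 403 RPKM in the Control libraries and 12139 ± 780.1 in the Middle libraries, and the spermatocyte gene Ldhc at 1536 ± 18 and 1495 ± 33 (SD, n = 3 per group). All 12 endothelial marker genes that were looked up lay below the level needed for a test, and their summed level was 3.37, 3.10 and 3.57 RPKM in Control replicates 1 to 3 and 4.01, 3.70 and 3.66 in Middle replicates 1 to 3. In whole tissue, fewer cells of a type and less RNA per cell cannot be told apart.

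A few genes held most of the matrix transcript. The collagen chain gene Col22a1, the inhibitor gene Timp2 and the collagen chain gene Col20a1 held 55.7% to 62.2% of the summed RPKM of the 94 genes in each library. A mean of over 5 RPKM over all 6 libraries was reached by 7 of the 94 genes, 23 lay between 1 and 5 RPKM, 44 between 0.1 and 1, and 20 below 0.1. In 7 genes no library held more than 6 reads, the number that a count of 0 allows when both mates of 3 fragments are counted. Of the 94, 31 reached a mean of 1 RPKM in at least 1 group and were tested, and 63 did not. Of those 63, 15 still held at least 100 reads in every library.

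**Figure D1:**
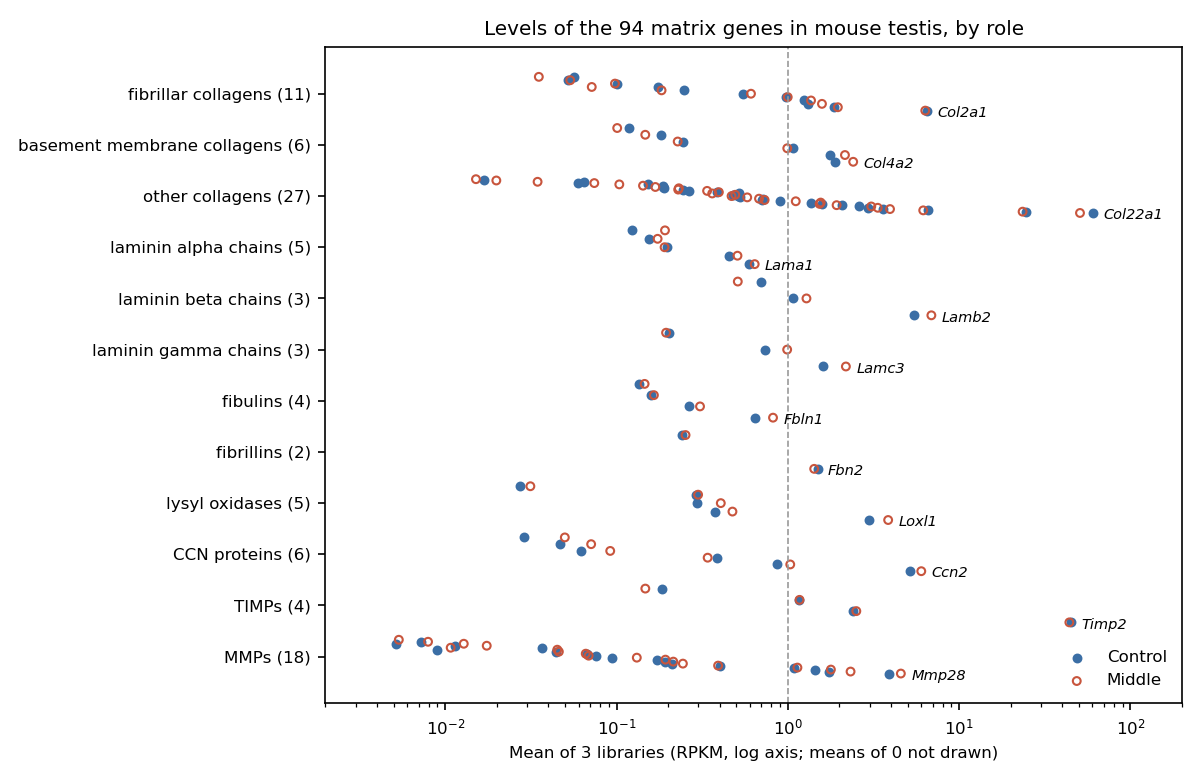
Mean RPKM of 3 libraries for each of the 94 genes on a log axis, by role with the number of genes in parentheses; filled points are Control, open points Middle, the dashed line marks 1 RPKM, and the highest gene of each role is named. Col22a1 and Timp2 lie far to the right of the other genes, and the Control and Middle points of a gene lie close together beside the spread of levels within a role.

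No matrix gene passed the test between Middle and Control. Of the 31 tested genes 0 had an adjusted p under 0.05 (limma-trend, Benjamini-Hochberg over all 15040 genes tested), against 0.0532% of all genes tested. The mean log2 level was higher in Middle for 22 of the 31 genes and lower for 9, with a median log2 fold change (Middle minus Control, on the log2(RPKM + 1) scale, as for every such value from limma-trend) of 0.11, while 55.9% of all tested genes lay above 0 with a median of 0.03. An unadjusted p under 0.05 was reached by 8 of the 31 genes, 25.8%, against 20.7% of all genes tested, a share close to that background. The Middle libraries all lay above the Control libraries for 7 of the 31 genes, where 17.9% of all tested genes did, and all below for 1, where 11.4% did. Limma-voom on the reads recovered from the RPKM values tested 82 of the 94 genes and also called 0, against 0.0419% of all genes tested this way, with 16 (19.5%) at an unadjusted p under 0.05 against 17.9% of those 23889 genes. Gene positions are on GRCm39, the build the submitters' processing notes name. Adjusted p-values that follow are from limma-trend unless limma-voom is named.

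Fibrillar collagens form the banded fibres that carry tension. The highest of these 11 genes was Col2a1, best known from cartilage (chromosome 15, 97873483 to 97902576), at 6.81, 6.97 and 5.73 RPKM in Control replicates 1 to 3 and 7.27, 6.20 and 5.56 in Middle replicates 1 to 3. Its groups overlapped (log2 fold change -0.03, SE 0.11, adjusted p = 0.863). Col2a1 lay above the main interstitial collagens in every library. Col1a1 was at 1.53, 2.10 and 1.93 RPKM in the Control libraries and 1.94, 2.09 and 1.85 in the Middle libraries, and its groups overlapped (adjusted p = 0.735). Its partner chain gene Col1a2 was at 1.28, 1.30 and 1.35 RPKM in the Control libraries and 1.51, 1.85 and 1.39 in the Middle libraries. All 3 Middle libraries lay above all 3 Control libraries for Col1a2, and the log2 fold change, 0.16 with an SE of 0.09, missed the threshold (adjusted p = 0.322). Type I collagen joins 2 chains of Col1a1 with 1 of Col1a2, and the ratio of their RPKM was 1.19, 1.62 and 1.43 in Control and 1.28, 1.13 and 1.33 in Middle, with the groups overlapping.

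Col5a1 and Col3a1, which join fibres of type I, were near the same level. Col5a1 had means of 1.25 ± 0.18 RPKM in the Control libraries and 1.37 ± 0.049 in the Middle libraries, and Col3a1 of 0.980 ± 0.094 and 0.999 ± 0.16 (SD, n = 3 per group). Col3a1 lay just under the level for a test. Another 6 fibrillar genes (Col5a2, Col5a3, Col11a1, Col11a2, Col24a1 and Col27a1) lay below 1 RPKM in both groups. In order of level over the 6 libraries, Col2a1 stood clear of Col1a1, while the ranges of neighbours from Col1a1 through Col1a2, Col5a1 and Col3a1 overlapped.

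Collagen IV is the network collagen of basement membranes, and its 6 genes lie in 3 head-to-head pairs. Col4a1 and Col4a2 make the common form. Col4a1 (chromosome 8, 11248423 to 11362826, minus strand) and Col4a2 (chromosome 8, 11362805 to 11499287, plus strand) start toward opposite sides, and their first exons share 22 bases (GRCm39, per the file). Their start regions are shown because the pair is read from 1 stretch of DNA and because the series title concerns the transcription factor GATA2, which binds GATA motifs. The sequences are RefSeq's, of GRCm38.p6, from 250 bases before to 50 after the annotated start, and a window was found by symbol for 65 of the 94 genes. Capitals mark, on either strand, the GC box GGGCGG, the motif CCAAT, the motif TATAAA and the GATA forms. A GATA form was counted as the letters GATA with A or T before them and A or G after them. The windows of Col4a1 (chr8:11312777-11313076, minus strand) and Col4a2 (chr8:11312555-11312854, plus strand) share 78 bases:
Col4a1: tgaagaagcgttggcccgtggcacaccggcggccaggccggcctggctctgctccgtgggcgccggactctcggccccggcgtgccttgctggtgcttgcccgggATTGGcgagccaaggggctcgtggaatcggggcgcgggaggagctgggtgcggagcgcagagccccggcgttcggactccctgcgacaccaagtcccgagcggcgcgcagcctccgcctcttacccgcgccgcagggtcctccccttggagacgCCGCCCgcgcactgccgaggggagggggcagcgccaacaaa
Col4a2: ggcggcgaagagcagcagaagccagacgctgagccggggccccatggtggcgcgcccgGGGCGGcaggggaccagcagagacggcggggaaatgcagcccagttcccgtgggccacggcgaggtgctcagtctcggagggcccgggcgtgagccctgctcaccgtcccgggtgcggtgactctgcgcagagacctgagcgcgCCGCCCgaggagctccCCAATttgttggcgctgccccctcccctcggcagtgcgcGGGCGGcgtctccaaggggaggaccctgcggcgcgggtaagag
Each window held at least 1 GC box and a CCAAT motif, and neither held TATAAA or a GATA form. The 78 shared bases held 1 GC box and no other of these motifs.

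With 1 window per gene, a GC box was found in 39 of the 65 matrix genes (60%) and in 35.9% of all 27025 genes of the RefSeq table. A GATA form was found in 11 of the 65 (16.9%) and in 30.2% of all. CCAAT was found in 32.3% and 37.9%, and TATAAA in 15.4% and 14.2%. The SMAD palindrome GTCTAGAC was found in 0 of the 65 windows and 0.211% of all. A match describes letters only, and no match says only that these letters are not in the window.

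Col4a2 was at 1.93, 1.87 and 1.85 RPKM in Control replicates 1 to 3 and 2.56, 2.62 and 2.05 in Middle replicates 1 to 3. Every Middle library lay above every Control library, and the Control libraries were close to each other, with means of 1.88 ± 0.040 and 2.41 ± 0.31 (SD, n = 3 per group). The log2 fold change was 0.24 (SE 0.09), short of the threshold (adjusted p = 0.200). Col4a1 was at 1.68, 1.81 and 1.81 RPKM in the Control libraries and 2.21, 2.55 and 1.71 in the Middle libraries. Middle replicates 1 and 2 lay above all Control libraries and Middle replicate 3 within them, so the groups overlapped (log2 fold change 0.18, SE 0.11, adjusted p = 0.344). The ratio of Col4a1 to Col4a2 kept to 0.834 to 0.976 over all 6 libraries. The trimer of type IV collagen joins 2 chains of the first with 1 of the second.

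The other 4 collagen IV genes had lower means in Middle. Col4a4 had means of 1.08 ± 0.11 RPKM in the Control libraries and 0.993 ± 0.17 in the Middle libraries, and its head-to-head neighbour Col4a3 of 0.245 ± 0.043 and 0.228 ± 0.014 (SD, n = 3 per group). Col4a5 was at 0.181 ± 0.035 and 0.147 ± 0.043 RPKM and Col4a6 at 0.118 ± 0.040 and 0.101 ± 0.029 (SD, n = 3 per group). Each of these differences lay within overlapping groups, and Col4a4 alone was tested (adjusted p = 0.694). Col4a4 lay above Col4a3 in every library, with no overlap between the 2 genes.

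Collagens with interrupted helices, which coat fibres instead of building them, held the highest levels. Col22a1, known from the junctions of muscle with tendon (chromosome 15, 71667644 to 71906076), was at 62.8, 57.1 and 61.6 RPKM in Control replicates 1 to 3 and 54.6, 51.3 and 46.4 in Middle replicates 1 to 3. It held 36.5% of all reads on the 94 genes. Every Middle library lay below every Control library, and Col22a1 was the only tested matrix gene for which this held. Its means were 60.5 ± 3.0 and 50.8 ± 4.1 RPKM (SD, n = 3 per group), a ratio of 0.839 and -0.25 on the log2 scale with an SE of 0.08, which missed the threshold (adjusted p = 0.178). Col20a1, of the same fibre-associated group, was at 25.1, 24.03 and 24.4 RPKM in the Control libraries and 26.5, 22.2 and 21.8 in the Middle libraries. Middle replicate 1 was the highest of all 6 libraries and the other Middle libraries the lowest, so the groups overlapped (log2 fold change -0.06, adjusted p = 0.660). The ratio of Col22a1 to Col20a1 was 2.50, 2.38 and 2.53 in Control and 2.06, 2.31 and 2.13 in Middle, without overlap. Col16a1, a further fibre-associated chain, had means of 6.56 ± 1.7 and 6.17 ± 0.58 RPKM (SD, n = 3 per group), with Control replicate 3 alone at 8.45.

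Spermatid genes lay lower in the same comparison as Col22a1: 13 of 14 markers had a log2 fold change below 0, and their summed level was 32606, 29546 and 32009.5 RPKM in the Control libraries and 30163, 27717 and 28195 in the Middle libraries. These sums overlapped between the groups. The cells that hold Col22a1 are not told by whole tissue, and the part of spermatid content in its difference was not tested.

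Collagen VI makes beaded microfibrils around cells. Its neighbouring genes Col6a1 and Col6a2 had means of 2.61 ± 0.11 and 0.902 ± 0.016 RPKM in the Control libraries and 3.07 ± 0.75 and 1.11 ± 0.25 in the Middle libraries (SD, n = 3 per group). Their groups overlapped, with Middle replicate 3 at 2.20 RPKM for Col6a1, below every Control library, and at 0.847 for Col6a2. The gene of the chain that joins these, Col6a3, stayed below the level for a test at 0.269, 0.276 and 0.248 RPKM in the Control libraries and 0.335, 0.367 and 0.311 in the Middle libraries. Its Middle libraries all lay above its Control libraries (limma-voom log2 fold change 0.34, SE 0.14, adjusted p = 0.242). Col6a4 was the highest collagen VI gene at 3.61 ± 0.13 and 3.95 ± 0.55 RPKM. Col18a1 and Col15a1, collagens of basement membrane zones, were at 2.92 ± 0.38 and 1.59 ± 0.18 RPKM in the Control libraries and 3.35 ± 0.38 and 1.53 ± 0.10 in the Middle libraries (SD, n = 3 per group), with overlapping groups.

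Col14a1, another fibre-associated chain, and Col9a3, a chain of collagen IX, were the remaining tested collagens, at 1.36 ± 0.19 and 2.08 ± 0.56 RPKM in the Control libraries and 1.56 ± 0.082 and 1.93 ± 0.12 in the Middle libraries (SD, n = 3 per group). The other 17 genes of this role lay below the level for a test. Among them the groups did not overlap for Col6a3 and Col10a1, higher in Middle, and for Col6a6, lower. Col10a1 was listed at 0 in all 3 Control libraries and held 7 reads in all, which is too few for a fold.

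The laminin classes differed in level by their highest gene: Lamb2, Lamc3 and Lama1 averaged 6.18, 1.90 and 0.616 RPKM over all 6 libraries. Lower chains of different classes overlapped, with Lamb3 at 0.604 RPKM beside Lama1. The beta chain gene Lamb2 was the highest, at 5.39, 5.58 and 5.46 RPKM in Control replicates 1 to 3 and 7.76, 6.80 and 6.10 in Middle replicates 1 to 3 (chromosome 9, 108356935 to 108367729). All Middle libraries lay above all Control libraries, with means of 5.48 ± 0.094 and 6.89 ± 0.83 (SD, n = 3 per group). On the log2 scale this was 0.28 with an SE of 0.09, short of the threshold (adjusted p = 0.178). Lamb1 was at 1.17, 1.07 and 0.977 RPKM in the Control libraries and 1.21, 1.55 and 1.09 in the Middle libraries, with overlap (adjusted p = 0.420). The 3 beta chain genes did not overlap each other in level, in the order Lamb2, Lamb1, Lamb3.

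The start region of Lamb2 (chr9:108479612-108479911, plus strand; RefSeq, GRCm38.p6) is shown beside those of the collagen IV pair because it held none of the motifs searched, and so carries no capitals:
Lamb2: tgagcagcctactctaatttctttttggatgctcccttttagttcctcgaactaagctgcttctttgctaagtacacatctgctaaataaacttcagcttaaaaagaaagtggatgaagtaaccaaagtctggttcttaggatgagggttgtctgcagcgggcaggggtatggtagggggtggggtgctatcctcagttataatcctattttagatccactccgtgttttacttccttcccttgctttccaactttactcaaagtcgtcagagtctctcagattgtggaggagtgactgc

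Of the gamma chains Lamc3 was the highest, at 1.502, 1.57 and 1.77 RPKM in the Control libraries and 2.19, 2.65 and 1.71 in the Middle libraries. Middle replicate 3 lay within the Control range, so the groups overlapped (log2 fold change 0.27, SE 0.11, adjusted p = 0.234). Lamc1, the gamma chain of most basement membranes, was at 0.737, 0.745 and 0.729 RPKM in the Control libraries and 1.01, 1.05 and 0.908 in the Middle libraries. The Control libraries lay within a narrow range and every Middle library was above them, a ratio of 1.34. Lamc1 stayed under the level for the main test, and limma-voom put it at 0.42 on the log2 scale with an SE of 0.11, short of the threshold (adjusted p = 0.132).

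All 5 alpha chain genes had means below 1 RPKM in both groups. Lama1 was at 0.568, 0.548 and 0.655 RPKM in the Control libraries and 0.663, 0.620 and 0.639 in the Middle libraries, and Lama2 at 0.444, 0.506 and 0.413 RPKM in the Control libraries and 0.448, 0.569 and 0.508 in the Middle libraries. The groups overlapped for both, and the 2 genes overlapped each other in level. Lama5, Lama4 and Lama3 followed at 0.194, 0.164 and 0.157 RPKM over all 6 libraries and were not separated from each other. The summed level was 1.47, 1.55 and 1.54 RPKM for the alpha chains in Control and 1.71, 1.76 and 1.64 in Middle. For the beta chains it was 7.30, 7.32 and 7.13 RPKM in Control and 9.42, 8.90 and 7.72 in Middle. The Middle sums lay above the Control sums for both of these classes. Lamb2 made up most of the beta sum, and Lamb3 within it was lower in Middle.

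Lama3, Lamb3 and Lamc3 encode the chains of laminin-333, which spermatids display at their junction with Sertoli cells. The group mean was lower in Middle for Lamb3 and higher for Lama3 and Lamc3. Lamb3 was at 0.733, 0.671 and 0.690 RPKM in the Control libraries and 0.447, 0.551 and 0.533 in the Middle libraries, named here after its values were seen. Every Middle library lay below every Control library, a ratio of 0.732 (limma-voom log2 fold change -0.45, SE 0.14, adjusted p = 0.150). Lama3 was at 0.127, 0.148 and 0.0935 RPKM in the Control libraries and 0.222, 0.156 and 0.198 in the Middle libraries, with every Middle library above every Control library (limma-voom log2 fold change 0.61, SE 0.22, adjusted p = 0.191). Both lay under the level for the main test, and neither passed.

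**Figure D2:**
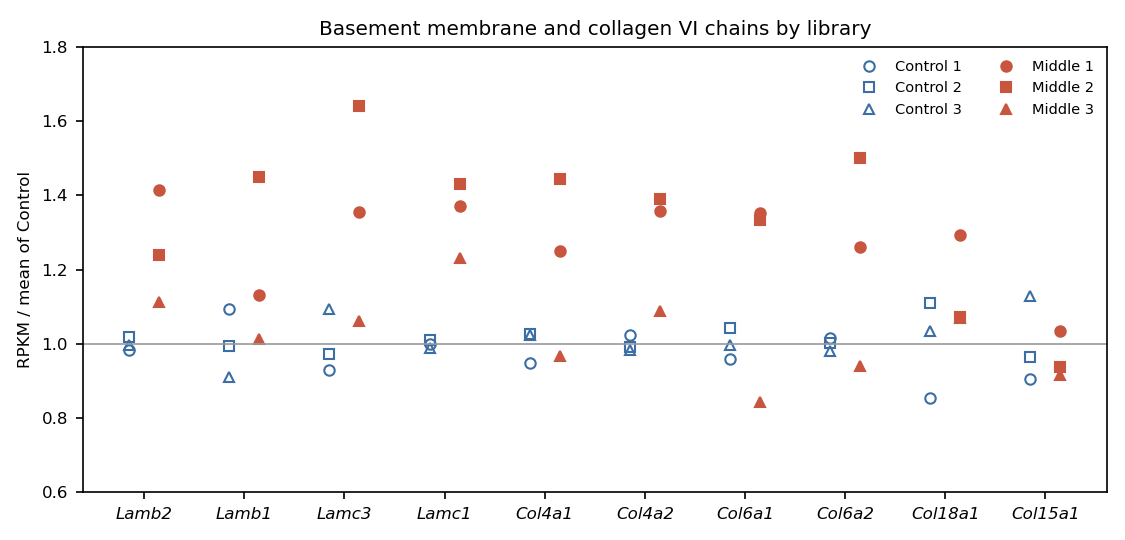
RPKM of each library divided by the Control mean of the same gene, for 10 laminin and collagen chain genes; open symbols are Control, filled symbols Middle, and the symbol shape is the replicate. Middle replicate 3 lies below both other Middle libraries for all 10 genes, for Col18a1 only just below Middle replicate 2. For Lamb1, Lamc3, Col4a1, Col6a1, Col6a2, Col18a1 and Col15a1 Middle replicate 3 lies within or below the Control range.

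Fibrillins and fibulins build and anchor elastic microfibrils. Fbn2 was the only one of these 6 genes that was tested, at 1.40, 1.496 and 1.58 RPKM in the Control libraries and 1.29, 1.69 and 1.30 in the Middle libraries. Its groups overlapped (log2 fold change -0.04, adjusted p = 0.792). Fbn1, the main fibrillin of adult tissue, was at 0.2298, 0.261 and 0.229 RPKM in the Control libraries and 0.209, 0.315 and 0.235 in the Middle libraries, far below Fbn2 in every library. Gm9913, a gene on the opposite strand, overlaps 20.1% of the exon bases of Fbn1. Fbln1 was the highest fibulin at 0.582, 0.635 and 0.708 RPKM in the Control libraries and 0.909, 0.844 and 0.706 in the Middle libraries, with overlap between Middle replicate 3 and Control replicate 3. Fbln5 was at 0.203, 0.327 and 0.268 RPKM in the Control libraries and 0.324, 0.372 and 0.226 in the Middle libraries and overlapped, and Fbln2 and Fbln7 lay lower.

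Of the lysyl oxidases only Loxl1, which crosslinks elastin, was tested. It was at 3.17, 3.27 and 2.50 RPKM in the Control libraries and 3.83, 4.20 and 3.53 in the Middle libraries (chromosome 9, 58195021 to 58220469). Each Middle library exceeded each Control library, by 0.29 on the log2 scale with an SE of 0.10, short of the threshold (adjusted p = 0.192). Lox itself was at 0.313, 0.315 and 0.259 RPKM in the Control libraries and 0.389, 0.422 and 0.408 in the Middle libraries, also without overlap (ratio 1.37; limma-voom log2 fold change 0.44, SE 0.19, adjusted p = 0.242). Loxl3 was at 0.260, 0.420 and 0.442 RPKM in the Control libraries and 0.431, 0.494 and 0.5004 in the Middle libraries, and its groups overlapped. Loxl2 had means of 0.292 ± 0.041 and 0.299 ± 0.065 RPKM, and Loxl4 was near 0.

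CCN proteins are secreted modulators of growth factor and integrin signals, and Ccn2 is induced by TGF-β in many cells. Ccn2 was at 5.33, 5.21 and 5.04 RPKM in the Control libraries and 6.38, 6.13 and 5.52 in the Middle libraries. All Middle libraries lay above all Control libraries (log2 fold change 0.18, SE 0.07, adjusted p = 0.227). The antisense gene Gm15270 shares 24.4% of the exon bases of Ccn2, and without stated strandedness their reads cannot be told apart. Ccn5 was at 0.817, 0.917 and 0.843 RPKM in the Control libraries and 0.988, 1.08 and 1.03 in the Middle libraries, without overlap (adjusted p = 0.324). Ccn1, another early response gene of the family, had means of 0.388 ± 0.11 and 0.340 ± 0.12 RPKM (SD, n = 3 per group), with overlap. Ccn3, Ccn4 and Ccn6 had means below 0.1 RPKM in both groups, and of these the groups stood apart for Ccn4 alone (0.0621 and 0.0919 RPKM, higher in Middle).

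Timp2 outweighed all other protease and inhibitor genes here. It was at 45.5, 44.8 and 44.9 RPKM in Control replicates 1 to 3 and 43.6, 45.7 and 42.6 in Middle replicates 1 to 3. The groups overlapped, with means of 45.1 ± 0.39 and 44.0 ± 1.6 (SD, n = 3 per group; log2 fold change -0.03, adjusted p = 0.729). Cep295nl, a gene on the same strand, shares 7.84% of the exon bases of Timp2. Timp3, which binds to matrix, was at 2.45, 2.38 and 2.38 RPKM in the Control libraries and 2.43, 2.85 and 2.25 in the Middle libraries, and its groups overlapped (adjusted p = 0.781). Timp3 lies within Syn3, and 21.3% of its exon bases are also exon bases of that gene. Timp1 had means of 1.17 ± 0.34 and 1.17 ± 0.098 RPKM (SD, n = 3 per group; adjusted p = 0.958). The 4 TIMP genes did not overlap each other in level, in the order Timp2, Timp3, Timp1, Timp4.

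Every MMP gene lay below Timp2, and 4 of 18 were tested. Mmp28, a secreted protease known from testis, was the highest and lay above Timp3 in every library, at 3.49, 3.996 and 4.28 RPKM in the Control libraries and 4.97, 3.77 and 4.96 in the Middle libraries. Its groups overlapped (log2 fold change 0.17, adjusted p = 0.378), and some of its exon bases are shared with the gene 1700020L24Rik. Mmp14, which sits in the cell membrane and with TIMP2 activates MMP2, was at 1.48, 1.49 and 1.37 RPKM in the Control libraries and 1.79, 1.88 and 1.69 in the Middle libraries. Every Middle library lay above every Control library (log2 fold change 0.18, SE 0.07, adjusted p = 0.215). The ratio of Mmp14 to Timp2 was 0.0326, 0.0334 and 0.0306 in Control and 0.0409, 0.0410 and 0.0396 in Middle, without overlap. With Timp2 nearly level between libraries (42.6 to 45.7 RPKM), this ratio restates the values of Mmp14. Mmp11 was at 1.62, 1.76 and 1.87 RPKM in the Control libraries and 2.79, 1.83 and 2.35 in the Middle libraries, and Middle replicate 2 lay within the Control range (log2 fold change 0.26, SE 0.11, adjusted p = 0.239). Mmp24 had means of 1.08 ± 0.092 and 1.14 ± 0.26 RPKM (adjusted p = 0.879).

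The start region of Mmp14 (chr14:54431348-54431647, plus strand; RefSeq, GRCm38.p6) is shown for comparison with the collagen IV pair. It also held GC boxes and CCAAT motifs, marked by capitals on either strand, and 1 CCAAT motif overlaps a GC box:
Mmp14: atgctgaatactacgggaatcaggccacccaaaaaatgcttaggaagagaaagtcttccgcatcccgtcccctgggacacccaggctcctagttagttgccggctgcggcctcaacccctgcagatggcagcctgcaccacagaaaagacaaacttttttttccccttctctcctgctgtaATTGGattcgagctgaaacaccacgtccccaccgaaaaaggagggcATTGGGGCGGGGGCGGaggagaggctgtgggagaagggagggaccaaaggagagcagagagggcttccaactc

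The gelatinase genes Mmp2 and Mmp9 were low. Mmp2 had means of 0.193 ± 0.037 and 0.214 ± 0.024 RPKM (SD, n = 3 per group), and Mmp9 of 0.0441 and 0.0461. The 7 genes with no more than 6 reads in any library were Mmp8, Mmp13, Mmp20, Mmp21, Mmp27, Ccn6 and Col10a1, and a difference in them was not detectable at this depth.

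**Figure D3:**
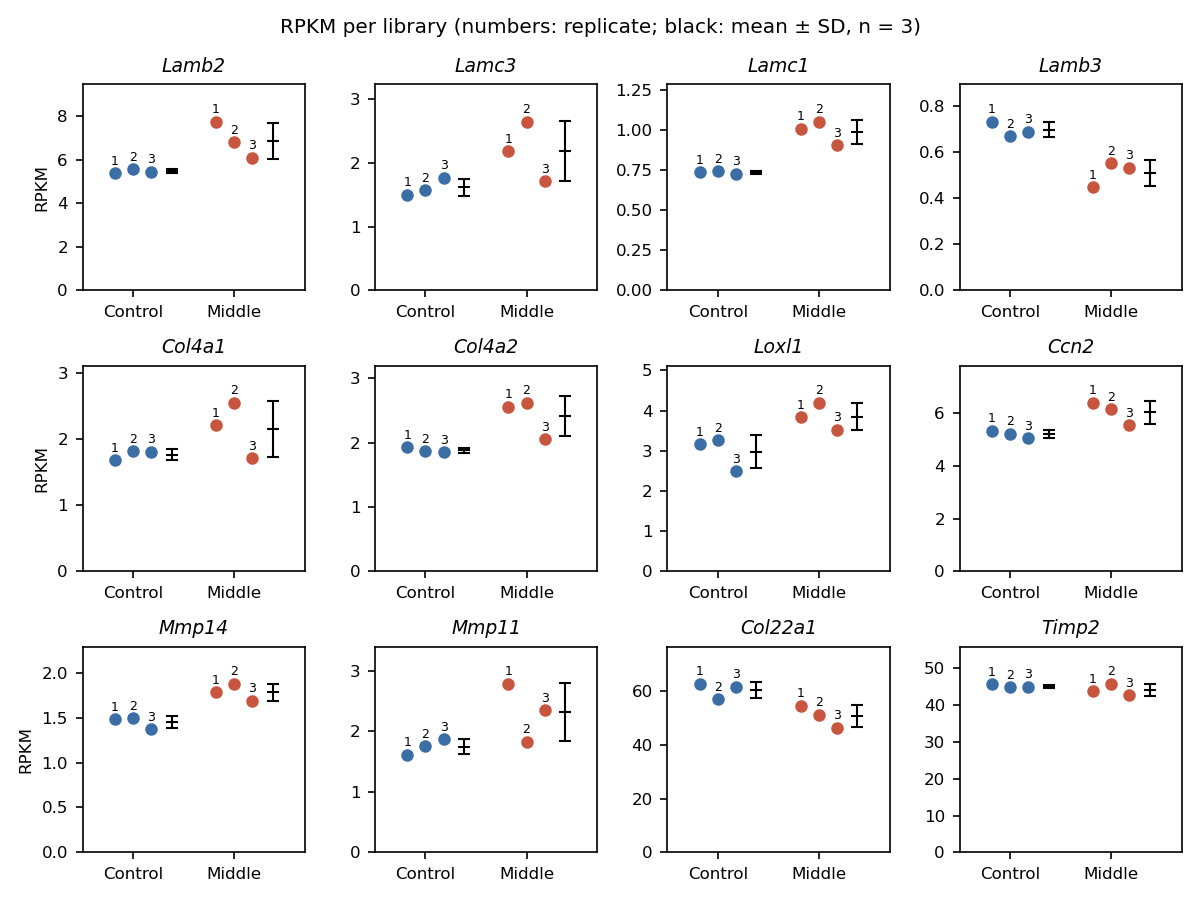
RPKM in each library for 12 of the genes, with Control in blue, Middle in red, the replicate number above each point and the mean ± SD (n = 3) in black; each axis starts at 0. Lamb2, Lamc1, Col4a2, Loxl1, Ccn2 and Mmp14 have all Middle points above all Control points, Lamb3 and Col22a1 have all below, and the groups overlap for Lamc3, Col4a1, Mmp11 and Timp2.

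Of the 63 genes below the level for the main test, 7 had all Middle libraries above all Control libraries and 4 all below; by the same measure 4.17% and 4.4% of all 23675 genes below it stood apart. Many of those other genes hold few or no reads, so the background is one of lower counts. Among the 63, Mmp13 and Col10a1, counted as above, and Mmp8, counted as below, held no more than 6 reads in any library. Limma-voom could test 51 of the 63. An unadjusted p under 0.05 was reached by 8 of them. Of these, 5 were higher in Middle (Fbln1, Lama3, Lamc1, Lox and Col6a3) and 3 lower (Col11a2, Lamb3 and Col6a6), where 10.1% and 7.76% of all genes tested by limma-voom were, and 0 passed after adjustment. Control replicate 3, the library with the fewest reads, stood apart for Col7a1, Col8a2, Col11a2, Col24a1, Col26a1, Col27a1 and Col28a1. In these 7 genes, of 85 with at least 10 reads in a Control library, it exceeded 1.5 times both other Control libraries, a share of 8.24% where 4.54% of all such genes did so.

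Genes whose products make, trim or bind this matrix were read from fixed lists, and 0 of their members passed (limma-trend). Among all tested genes 55.9% lay above 0 and 20.7% had an unadjusted p under 0.05. Of 14 tested genes for the modification and folding of collagen chains 12 lay above 0, with a median log2 fold change of 0.14 and 5 at an unadjusted p under 0.05. The disulfide isomerase and prolyl hydroxylase subunit gene P4hb was at 24.01 ± 0.61 RPKM in the Control libraries and 27.8 ± 1.3 in the Middle libraries, and the prolyl isomerase gene Ppib at 17.01 ± 0.80 and 19.9 ± 1.9 (SD, n = 3 per group; adjusted p = 0.178 and 0.216). Mia3, of the same list and between these genes in level, was at 25.1 ± 1.03 and 25.03 ± 3.3 RPKM, with overlapping groups (adjusted p = 0.963). Of 7 tested basement membrane partner genes 6 lay above 0 (median 0.17, 2 at an unadjusted p under 0.05). Among them Sparc, a collagen-binding glycoprotein gene, was at 41.5 ± 1.3 and 43.1 ± 5.2 RPKM and Dag1, which encodes the laminin receptor dystroglycan, at 2.87 ± 0.26 and 3.77 ± 0.32 (SD, n = 3 per group; adjusted p = 0.757 and 0.178). Smoc1, of the same list and near Dag1 in level, was at 3.05 ± 0.48 and 3.64 ± 0.47 RPKM, with overlapping groups (adjusted p = 0.338). Of 3 tested elastic fibre partners 2 lay above 0, of 8 other matrix proteins 6, of 5 receptors 3 and of 5 other proteases and inhibitors 3, with medians of 0.19, 0.09, 0.08 and 0.06. An unadjusted p under 0.05 was reached by 2, 1, 1 and 0 of these. The 2 elastic fibre genes went in opposite directions, each without overlap between the groups. Emilin2, the highest of that list, was lower in Middle, at 3.80 ± 0.084 and 2.95 ± 0.51 RPKM (log2 fold change -0.29, adjusted p = 0.187). Mfap4 was higher, at 1.55 ± 0.25 and 2.10 ± 0.22 RPKM (log2 fold change 0.28, adjusted p = 0.194). Comp, a matrix protein of cartilage, stood out by level at 73.3 ± 2.6 RPKM in the Control libraries and 69.5 ± 2.2 in the Middle libraries (SD, n = 3 per group; adjusted p = 0.449).

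Other measures differed between the groups too. Across 14035 genes, the rank correlation between transcript GC content and how far each library stood from the average library was -0.302, -0.223 and -0.255 in Control replicates 1 to 3 and 0.461, 0.019 and -0.067 in Middle replicates 1 to 3. The 31 tested matrix genes had a median GC content of 55.9% and all tested genes one of 50.1%. At a GC content of 55% or more, a division chosen after seeing the data, the median log2 fold change was 0.15 for 21 matrix genes and 0.10 for 3182 genes of all kinds. Below it the medians were 0.05 for 10 matrix genes and 0.01 for 10853 genes. With the trend on GC removed from each library, an alternative added after seeing the data, the median of the 31 genes was 0.05, 18 lay above 0, and 3 had an unadjusted p under 0.05 in place of 8 (20.1% of all genes). Of the 31 genes 0 passed after adjustment, against 0.0598% of all genes. Lamb2 then had a log2 fold change of 0.18, Col4a2 of 0.14, Loxl1 of 0.19, Ccn2 of 0.10 and Mmp14 of 0.09, while that of Col22a1 was -0.33 and that of Col1a2 0.18. GC trend and group cannot be told apart in these libraries.

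**Figure D4:**
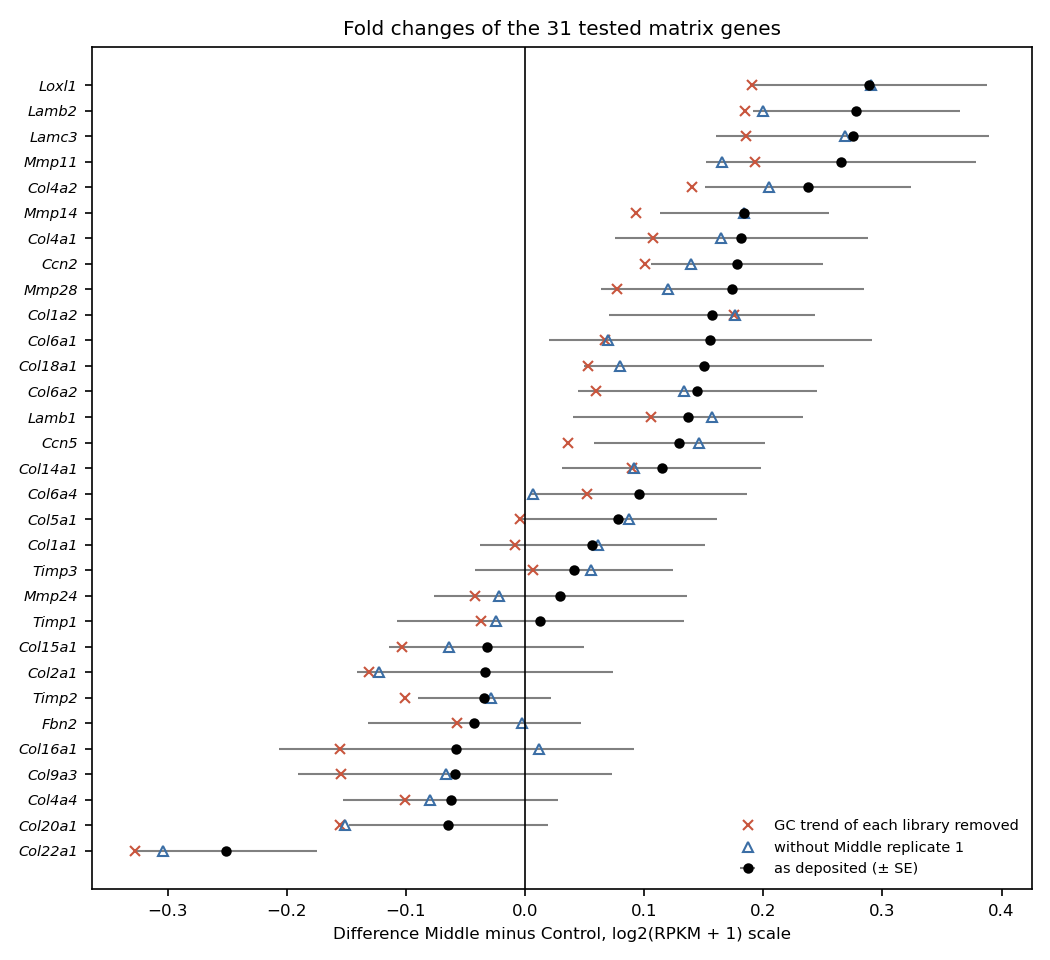
Log2 fold change of the 31 tested genes, Middle minus Control on the log2(RPKM + 1) scale: black points with their SE as deposited, red crosses after removal of each library's GC trend, blue triangles without Middle replicate 1. Most red crosses lie to the left of the black points, and Loxl1 is at the upper and Col22a1 at the lower end, with 0 genes past the adjusted threshold in any of the 3 fits (limma-trend).

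Markers of the cells that make tubule matrix also lay mostly above 0. Of 11 tested peritubular myoid genes 10 lay above 0 (median 0.22). The exception, the smooth muscle actin gene Actg2, had means of 159.6 ± 13 RPKM in the Control libraries and 139.6 ± 7.7 in the Middle libraries (SD, n = 3 per group), without overlap, and made up at least 50.3% of the list's sum in every library. With Actg2 the 12 listed genes summed to 272, 250 and 263 RPKM in the Control libraries and 290, 265 and 248 in the Middle libraries. These full sums overlapped, with Middle replicate 3 below every Control library. The sum of the other 11 genes was 97.1, 100.4 and 109 RPKM in Control and 144, 123 and 117 in Middle. Without Actg2 every Middle sum thus lay above every Control sum. Of 13 tested Sertoli cell genes 12 lay above 0 (median 0.17). All 15 listed genes summed to 339, 331 and 348 RPKM in the Control libraries and 410.3, 361 and 370.1 in the Middle libraries. Clu made up 34.2% to 42.0% of that sum. Without Clu the other 14 genes summed to 197, 196 and 214 RPKM in Control and 270, 212 and 237 in Middle, with overlap. Of 87 tested ribosomal protein genes 86 lay above 0 (median 0.25). Their part in the differences of the matrix genes was not tested.

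The Middle libraries were not alike in their matrix genes. Middle replicate 3 had the lowest value of its group for 23 of the 31 tested genes (74.2%) and the highest for 0, where it was lowest for 25.02% and highest for 29.9% of all tested genes. This count was made after the values were seen. Middle replicate 2 was the highest of its group for 18 of the 31 (58.1%, against 29.9% of all tested genes). Among the Control libraries no such split was seen: Control replicates 1, 2 and 3 were lowest for 13, 9 and 9 of the 31 genes. Among 11 Leydig cell genes, whose steroid enzymes make testosterone, the summed level was 568, 498 and 635 RPKM in Control replicates 1 to 3 and 683, 723 and 491 in Middle replicates 1 to 3. Middle replicate 3 was the lowest in this sum, of which the fatty acid binding protein gene Fabp3 was a large part, at 342, 387 and 183 RPKM in Middle replicates 1 to 3 and 266, 219 and 298 in Control replicates 1 to 3. The other 10 genes summed to 302, 279 and 338 RPKM in the Control libraries and 341, 335 and 309 in the Middle libraries. In this sum Middle replicate 3 lay within the Control range. Insl3 was most of it, at 206, 197 and 236 RPKM in Control and 234, 237 and 240 in Middle, highest in Middle replicate 3. For the steroid synthesis genes Star, Cyp11a1, Cyp17a1, Hsd3b6 and Hsd17b3, Middle replicate 3 lay below every Control library. For Star this held for all 3 Middle libraries (log2 fold change -0.62, adjusted p = 0.178). It also held for Middle replicate 1 in Cyp11a1 and for Middle replicate 2 in Cyp17a1. Middle replicate 1 lay above every Control library for Cyp17a1, Hsd3b6 and Hsd17b3, and Middle replicate 2 for Cyp11a1, Hsd3b6 and Hsd17b3. For Hsd3b1 Middle replicate 3 lay within the Control range. The summed level of 11 fibroblast genes was 20.7, 20.8 and 23.4 RPKM in the Control libraries and 26.96, 25.7 and 23.01 in the Middle libraries. Gsn made up 50.1% to 57.8% of that sum. Without Gsn the other 10 genes summed to 9.36, 10.02 and 11.61 RPKM in Control and 13.33, 10.85 and 11.47 in Middle, with overlap. Middle replicate 2, not Middle replicate 3, was then the lowest Middle library. The part of cell content in the difference between the Middle libraries was not tested.

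**Figure D5:**
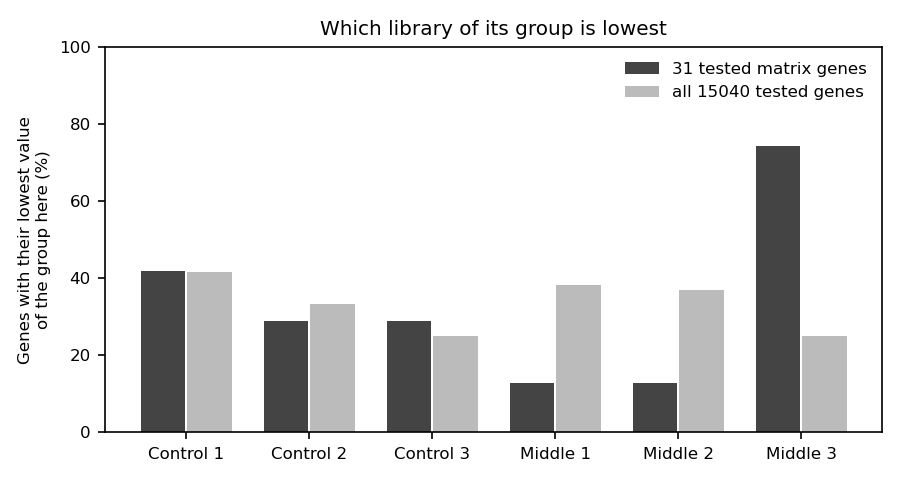
Share of genes, in percent, whose lowest value within the group falls in each library, for the 31 tested matrix genes (dark bars) and for all 15040 tested genes (light bars). The dark bar of Middle 3 reaches 74.2% beside a light bar of 25.02%, while dark and light bars lie close together for the Control libraries.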

How the data were processed

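RNA was isolated from whole testis with Trizol and carried into an mRNA library kit, per the labels' protocols. The submitters' processing notes name fastp 0.23.0 and build GRCm39. No aligner, counter or strandedness is stated in the sources used here. The authors deposited RPKM values with gene lengths, per the file headers. Multiplied by gene length, each value was a whole multiple of 1 step per library (tolerance 0.001), which gave the reads. The floor covers counting error only.

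Values were analysed as log2(RPKM + 1) with limma 3.58.1 (R 4.3.3) and a trended prior, two-sided, for the 15040 genes that averaged 1 RPKM or more in either group. Adjustment was Benjamini-Hochberg over all of them at 0.05. Limma-voom used recovered reads (at least 10 in 3 libraries). Libraries of a group differed beyond counting noise (chi-square per degree of freedom 6.26 to 34.4). GC content was averaged over GENCODE M21 transcripts, by symbol.

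Values of all libraries are given for the 12 genes of smallest p and the 2 highest of each role. Lamb3, Lama3, Lox and Col6a3 were added after their values were seen. The members and lists were chosen with earlier results of these data known. Alternatives were other pseudocounts, filters, scalings, limma-voom, the replicate block, leaving out each library and removal of the GC trend. The values of 1 laminin chain gene are not reported here.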

Additional observations from a re-analysis of the deposited data

How the results depend on the processing

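The count of matrix genes called was 0 under every setting run (limma). The count over all genes was 8, and it was 0 with no filter and 0 with the replicate block. It ranged from 0 to 3 when 1 library was left out, at 3 when this was Control replicate 1, 1 when it was Middle replicate 1 and 0 for each of the other 4. With the GC trend removed and Middle replicate 1 left out, a setting chosen after seeing the data, it was 2. The cause of these shifts was not tested. Libraries with the same number did not deviate together (correlations -0.153, -0.119 and 0.005), so the numbers were not taken as pairs.

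Of 19 tested genes given with all library values, 16 kept their direction under every setting run. Col1a1 turned to -0.008 with the GC trend removed, and leaving out 1 library took it from -0.028 to 0.12. Col2a1 ranged from -0.123 to 0.044 and Timp3 from -0.028 to 0.096. Leaving out 1 library moved 12 of the 19 log2 fold changes by over 1.5 times or turned them. Without Middle replicate 2, Col4a1 was at 0.09, Lamb1 at 0.05, Lamc3 at 0.17, Col1a2 at 0.08, Mmp28 at 0.28, Timp2 at -0.06 and Fbn2 at -0.12. Without Middle replicate 1, Mmp11 was at 0.17 and Col20a1 at -0.15. Without Control replicate 1, Mmp28 was at 0.11, and without Middle replicate 3, Col4a1 was at 0.29. The other 7, Lamb2, Col4a2, Col22a1, Loxl1, Ccn2, Ccn5 and Mmp14, moved by less. The cause was not tested. With 3 libraries a group, small differences in genes of few reads were not detectable.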
